A study of Mus musculus with 40 samples.

Results

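The 10 genes described here are used to recognise cardiac fibroblasts and their activated state: *Pdgfra*, *Tcf21*, *Pi16*, *Dpt* and *Gsn* as genes of fibroblast identity, and *Fap*, *Meox1*, *Cthrc1*, *Cilp* and *Comp* as genes of fibroblast activation. They were chosen by name, with earlier results of these data known. Each has 1 entry in both the male and the female table, so 10 of the 17831 genes of the series are covered. RNA with a polyA tail was sequenced from the hearts of 40 mice (left ventricle, as the study states), 1 library per mouse. CM-Il11-Tg mice were heterozygous for α-MHC-MerCreMer, a tamoxifen-dependent Cre recombinase under a cardiomyocyte promoter, and for *Rosa26-Il11*, so that recombination switches on *Il11* in cardiomyocytes. Hearts were taken 1, 3 or 6 weeks after tamoxifen, which was injected at 20 mg/kg on 5 consecutive days from 8 weeks of age. Control mice were littermates that carried α-MHC-MerCreMer without *Rosa26-Il11* and also received tamoxifen, and their sampling week is not given in the labels. Uninduced mice carried both alleles and received no tamoxifen, so they differed from controls in the transgene and in the drug. Titles of both groups read baseline and name no week. The parent lines were on C57BL/6N and C57BL6/J backgrounds. Each sex had 4 libraries per group, except 3 male controls and 3 male hearts at 6 weeks.

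For 2 male libraries the title and the description name opposite groups, control and 6 weeks, and neither entered a test. With both placed by description, 7 of the 10 genes were called at 6 weeks against control in males, as many as without them, with *Fap* among them in place of *Tcf21*. With both placed by title, 0 were called by limma, and the smallest adjusted p of the 10 was 0.226. The share of all genes called under either placement is not given here, so these counts are not particular to the 10 genes. *Il11* went against the titles: it was at 511 CPM in the library titled control, where male controls reached 0.147, and at 0.597 in the library titled 6 weeks. *Il11*, the induced gene, was at a mean of 0.0867 CPM in male and 0.0886 in female controls (read counts scaled for library size by the authors), at 19.6 and 26.8 in uninduced hearts, and between 421 and 570 in the groups given tamoxifen. Male libraries held 16663513 to 65333832 reads assigned to genes in the table, and female libraries 19147947 to 30929192. The 8 cardiomyocyte markers were present in all groups. Their summed level was 46269 to 56938 CPM in male controls and 27952 to 38471 in male hearts at 6 weeks. In females it was 29261 to 48553 in controls and 26158 to 35043 at 6 weeks, which overlapped. The lowest sum of any library was 23419 CPM, in females at 1 week. The values come from bulk tissue, in which more cells of a type and more RNA per cell cannot be told apart.

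Fibroblasts lay down and turn over the collagen network of the heart. *Pdgfra* encodes a receptor for platelet-derived growth factors and *Tcf21* a transcription factor of the fibroblast lineage. *Pi16* and *Dpt* encode a secreted peptidase inhibitor and a small matrix protein, and both mark fibroblasts found across many tissues. *Gsn* encodes gelsolin, which severs actin filaments. In activated fibroblasts the membrane protease encoded by *Fap*, the transcription factor encoded by *Meox1* and the secreted matrix proteins encoded by *Cthrc1*, *Cilp* and *Comp* have been described. Interleukin 11 is a cytokine whose receptor is present on fibroblasts.

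Promoter windows from RefSeq (build GRCm38.p6) were held for 6 of the 10 genes, in 8 windows, since *Gsn* has several start sites. *Comp*, *Cthrc1*, *Fap* and *Meox1* have no entry in that table. The 250 bases before the start of *Dpt* (chr1:164796413-164796662, plus strand) and of *Pi16* (chr17:29318632-29318881, plus strand) are shown, 5′ to 3′, because these were the 2 identity genes that rose most. Capitals mark the one match to TTCNNNGAA, the palindrome bound by STAT factors, which act downstream of cytokine receptors of this family.
*Dpt*: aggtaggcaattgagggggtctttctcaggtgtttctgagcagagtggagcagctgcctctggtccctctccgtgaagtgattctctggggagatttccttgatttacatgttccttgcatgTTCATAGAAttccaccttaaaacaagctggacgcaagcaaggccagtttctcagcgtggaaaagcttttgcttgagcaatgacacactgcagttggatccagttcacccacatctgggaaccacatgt
*Pi16*: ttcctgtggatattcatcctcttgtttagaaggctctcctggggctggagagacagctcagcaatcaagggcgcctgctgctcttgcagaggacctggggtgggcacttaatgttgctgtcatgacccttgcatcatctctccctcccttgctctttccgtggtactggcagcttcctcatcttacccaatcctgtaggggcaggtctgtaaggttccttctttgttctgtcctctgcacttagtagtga
The match in *Dpt* begins 128 bases before the start site. TTCNNNGAA was found in 1 of the 8 windows, and in 7.02% of all 32851 RefSeq windows of the same length, searched on both strands. The E-box CANNTG was found in 6 of the 8 windows, with none in those of *Pi16* and *Tcf21*, against 66.2% of all windows. The CArG box (in 1.47% of all windows) and the SMAD motif CAGACA (in 17.1%) were each found in 0 of the 8. These are matches of letters in a window, and binding was not measured.

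Against control, between 5 and 7 of the 10 genes were called higher at each week after tamoxifen, and 1 or 2 lower. *Comp*, *Pi16*, *Dpt* and *Cthrc1* rose at every week in both sexes and *Gsn* fell at every week in both sexes, while *Cilp* passed the test in none of these 6 comparisons. A gene was called at an adjusted p under 0.05, from limma on log2(CPM + 0.5) with Benjamini-Hochberg adjustment over the whole table (16931 in males, 16956 in females, with SE for the error of a log2 change), and all 10 genes passed the filter on low values in both sexes. *Cthrc1* passed it only through hearts given tamoxifen, so its calls are not independent of the filter, and the counts that follow include it. In males 7 of the 10 were called higher and 1 lower at 1 week, against 18.9% higher and 14.6% lower of all genes tested. At 3 weeks 6 were higher and 1 lower, against 13.2% and 8.1%. At 6 weeks 5 were higher and 2 lower, against 16.2% and 10.9%. In females 6 were higher and 1 lower at each week, against 15.3% and 13.1% of all genes at 1 week, 16.8% and 14.5% at 3 weeks, and 21.7% and 21% at 6 weeks. The median log2 fold change of the 10 genes was 0.89, 0.69 and 0.56 in males and 0.89, 0.67 and 0.99 in females at 1, 3 and 6 weeks, and that of all genes tested lay between -0.02 and 0.02.

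The scaling of the libraries bears on these splits. The deposited values summed to 1181923 to 1196278 in female controls and 848402 to 985319 in female hearts after tamoxifen. In males they summed to 1063756 to 1193422 in controls, 817395 to 984872 at 1 and 3 weeks, and 906746 to 1165099 at 6 weeks. When every library was scaled to the same total over the listed genes, the median log2 fold change of all genes moved to 0.33, 0.23 and 0.16 in males and to 0.28, 0.30 and 0.34 in females at 1, 3 and 6 weeks. The share of calls that were higher then became 90.9%, 90.8% and 85.9% in males, in place of 56.4%, 62% and 59.9%. In females it became 92.4%, 92.2% and 89%, in place of 53.7%, 53.7% and 50.8%. The changes that follow are on the authors' scaling, and single genes whose call differs under equal totals are named.

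**Figure D1:**
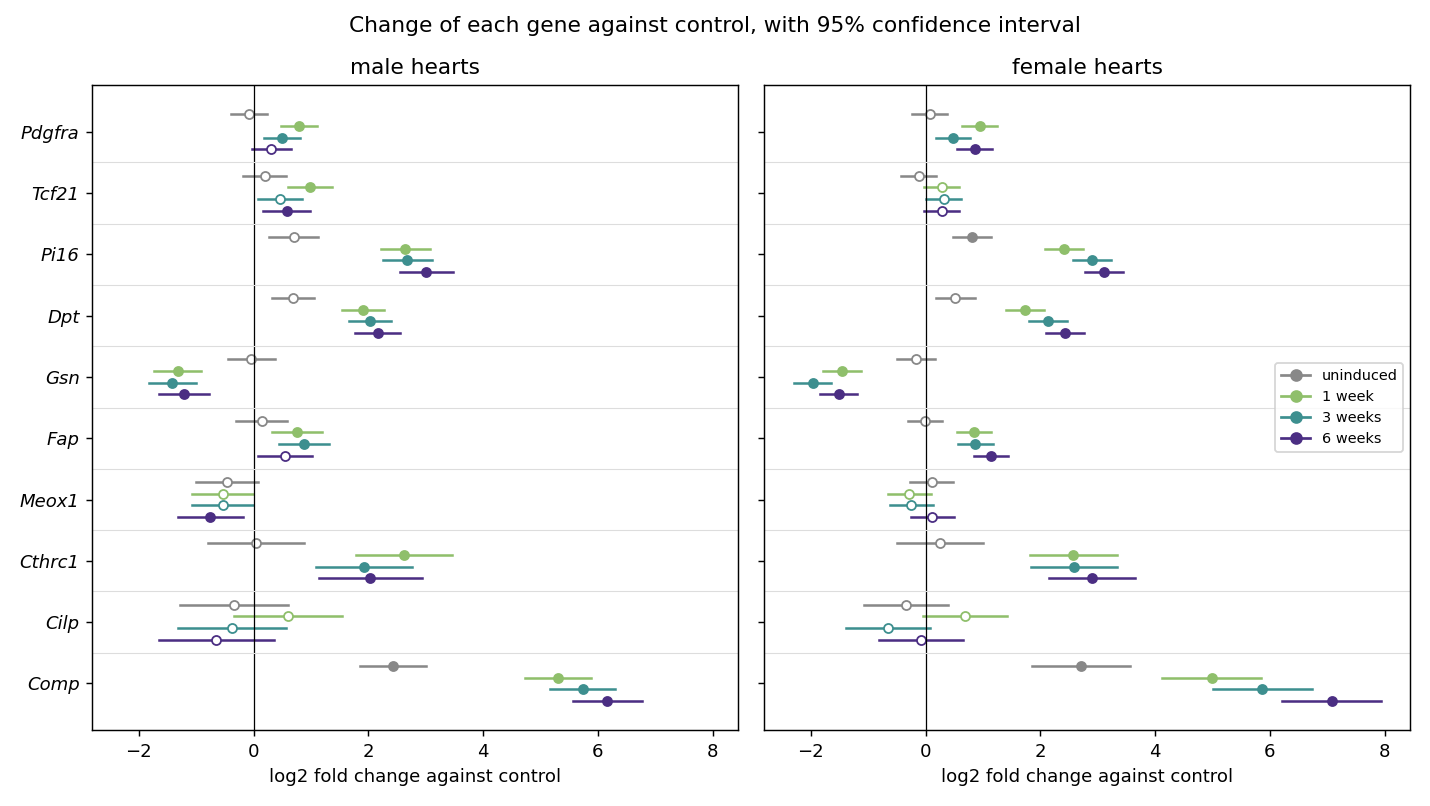
Log2 fold change against control, on log2(CPM + 0.5), of each gene in male (left) and female (right) hearts, with its 95% confidence interval from limma; filled points are called at an adjusted p under 0.05 and open points are not. *Comp* lies farthest to the right, at 6.17 in males and 7.08 in females at 6 weeks, and only *Gsn* lies below 0 at every week in both sexes with intervals that leave 0 out.

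*Pi16* (ENSMUSG00000024011, chromosome 17 of GRCm39, 29536654 to 29549567) rose most among the identity genes. Male control libraries were at 60.1, 46.05 and 76.1 CPM and female controls at 58.6, 67.0, 66.0 and 69.3. Male hearts were at 414, 463, 395 and 263 CPM at 1 week, 533, 326, 374 and 335 at 3 weeks, and 425, 504 and 527 at 6 weeks. Female hearts were at 328, 391, 355 and 320.2 at 1 week, 417, 432, 622 and 503 at 3 weeks, and 508, 659, 580.1 and 532 at 6 weeks. Every library taken after tamoxifen lay above every control library of its sex. The log2 fold change was 2.65 (SE 0.20, adjusted p = 1.1e-08) at 1 week, 2.68 at 3 weeks and 3.01 (SE 0.22) at 6 weeks in males, a 6.27-fold, 6.41-fold and 8.06-fold rise on this scale. In females it was 2.41 (SE 0.16, adjusted p = 4.4e-10), 2.90 and 3.11, up to an 8.65-fold rise.

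*Dpt* (ENSMUSG00000026574, chromosome 1, 164624187 to 164654544) also rose at each week. Its control libraries were at 53.9, 44.95 and 58.1 CPM in males and 68.03, 69.5, 68.5 and 76.9 in females. After tamoxifen, male libraries read 196, 255, 208 and 146 CPM at 1 week, 228, 246, 193 and 196 at 3 weeks, and 248, 291 and 180.2 at 6 weeks. Female hearts were at 199.8, 337, 239.9 and 194 at 1 week, 295, 259, 361 and 344 at 3 weeks, and 333, 501, 423 and 303 at 6 weeks. The groups did not overlap with controls at any week. In males the log2 fold change was 1.91 (SE 0.17, adjusted p = 1.1e-07), 2.04 and 2.17 at 1, 3 and 6 weeks. In females it was 1.74 (SE 0.16, adjusted p = 5.1e-08), 2.14 and 2.43.

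*Gsn* (ENSMUSG00000026879, chromosome 2, 35145967 to 35197917) moved the other way. Controls were at 895, 814 and 862 CPM in males and 1171, 1165, 1245 and 1194 in females. In males it was at 413, 230.4, 298 and 489 CPM at 1 week, 288, 264, 358 and 392 at 3 weeks, and 308, 412 and 396 at 6 weeks. In females it was at 378, 516, 456 and 408 at 1 week, 288, 341, 305 and 286 at 3 weeks, and 344, 583, 333 and 452 at 6 weeks. Every library after tamoxifen was below every control library of its sex. Against control this was a log2 change of -1.32 (SE 0.20, adjusted p = 4.7e-05), -1.41 and -1.21 in males and -1.45 (SE 0.16, adjusted p = 5.7e-07), -1.97 and -1.52 in females. The lowest level against control was therefore 0.256 times, in females at 3 weeks. Gelsolin is also made by cells other than fibroblasts, and the cell type behind its reads was not measured.

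*Pdgfra* (ENSMUSG00000029231, chromosome 5, 75311994 to 75358876) rose less. Controls were at 22.4, 31.5 and 34.3 CPM in males and 31.5, 26.6, 29.5 and 26.7 in females. At 1 week male hearts were at 52.2, 45.2, 52.8 and 52.8 and female hearts at 50.5, 70.0, 53.0 and 49.8. At 1 week the change was 0.80 in males (SE 0.15, adjusted p = 0.00051) and 0.94 in females (SE 0.15, adjusted p = 4.8e-05), without overlap. At 3 weeks, with 42.5, 43.4, 35.9 and 43.4 CPM in males and 46.6, 34.1, 38.1 and 41.6 in females, it was 0.50 (adjusted p = 0.023) and 0.48 (adjusted p = 0.016). The male call at 3 weeks was lost without control replicate 1 (0.32, adjusted p = 0.17) and without replicate 2 or 4 of that week (adjusted p = 0.056 and 0.051), and the female call without replicate 1 (0.40, adjusted p = 0.061). At 6 weeks the values were 42.3, 38.6 and 28.7 in males, where *Pdgfra* overlapped with controls and did not pass (0.31, 95% interval -0.03 to 0.65, adjusted p = 0.16). Without the male library at 28.7, replicate 4, it passed (0.47, adjusted p = 0.034). Female hearts at 6 weeks were at 42.3, 52.1, 71.2 and 46.5, a log2 fold change of 0.85 (adjusted p = 9.1e-05).

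*Tcf21* (ENSMUSG00000045680, chromosome 10, 22692803 to 22696073) was called in males only, though the difference between the sexes did not pass the test given further on. Controls were at 5.06, 4.85 and 5.44 CPM in males and 7.62, 6.97, 8.91 and 7.65 in females. Male hearts were at 12.02, 10.4, 8.64 and 11.8 CPM at 1 week, 7.21, 8.02, 6.24 and 7.43 at 3 weeks, and 7.50, 5.76 and 11.2 at 6 weeks. All of these lay above the male controls. The male log2 fold change was 0.99 (SE 0.18, adjusted p = 0.00039), 0.46 (adjusted p = 0.082) and 0.58 (adjusted p = 0.033). The male call at 6 weeks was lost without either of 6-week replicates 1 and 4 (adjusted p = 0.052 and 0.18) and without any 1 of control replicates 1, 3 and 4 (adjusted p = 0.073, 0.10 and 0.053), and with the 2 libraries of conflicting labels placed by description (0.26, adjusted p = 0.38). Female hearts ran from 7.61 to 12.4 CPM over the 3 weeks, overlapping with controls at 1 and 6 weeks. The female log2 fold change was 0.28, 0.32 and 0.28 (adjusted p = 0.16, 0.10 and 0.13), and 0.38 (adjusted p = 0.045) at 6 weeks without replicate 1 of that week. With equal library totals the female values passed at all 3 weeks (0.61, 0.65 and 0.66), as did the male value at 3 weeks (0.70, adjusted p = 0.0075). With only the 2 groups in the fit, the values at 3 weeks passed in both sexes (adjusted p = 0.027 in males and 0.030 in females) and the male value at 6 weeks did not (adjusted p = 0.13).

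**Figure D2:**
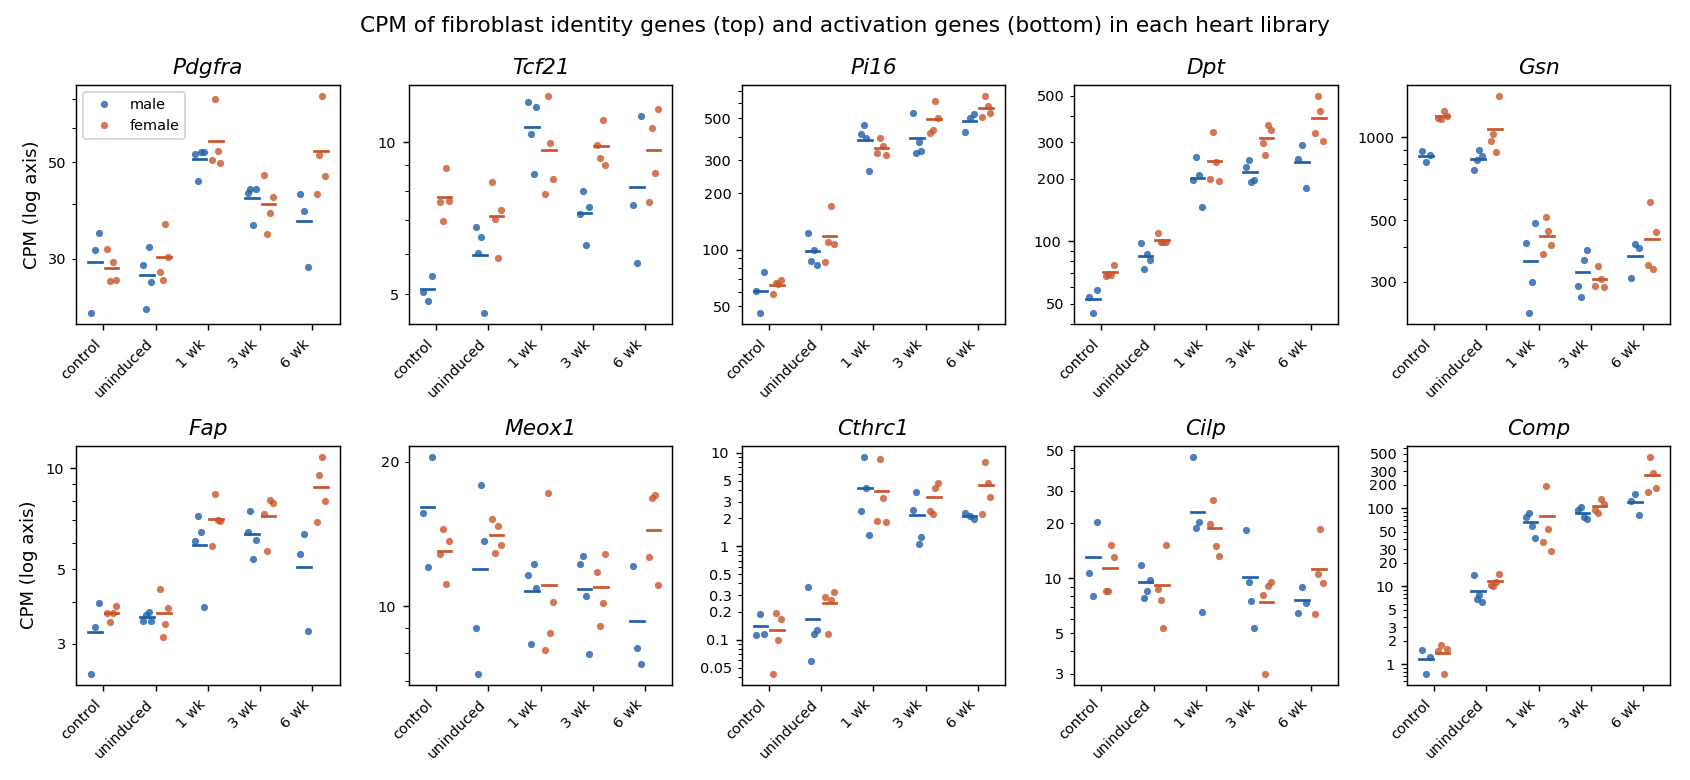
CPM on a log axis for each of the 10 genes in every library of the 5 groups, male in blue and female in orange; points are libraries and bars are group means. *Comp* steps up from control to uninduced hearts and again after tamoxifen, *Gsn* steps down from 1 week on, and *Cilp* and *Meox1* show overlapping groups.

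*Comp* (ENSMUSG00000031849, chromosome 8, 70826192 to 70834716), which encodes a pentameric protein of cartilage and tendon matrix related to the thrombospondins, had the largest change of the 10 genes in each comparison with control. Male controls were at 1.499, 0.757 and 1.22 CPM and female controls at 1.46, 1.74, 0.7505 and 1.55. The male libraries rose to 77.0, 87.7, 58.9 and 41.9 CPM at 1 week, 95.6, 104.2, 77.0 and 72.7 at 3 weeks, and 126, 155 and 81.5 at 6 weeks. Female hearts were at 37.0, 196, 53.7 and 28.4 at 1 week, 95.8, 87.4, 133 and 115 at 3 weeks, and 159.8, 462, 282 and 179.8 at 6 weeks. The lowest library after tamoxifen, at 28.4 CPM, was thus far above the highest control library, at 1.74. The fitted change was 5.30 (SE 0.27, adjusted p = 4.2e-11), 5.74 and 6.17 in males, up to 71.9-fold. It was 4.99 (SE 0.41, adjusted p = 1.2e-08), 5.87 and 7.08 in females, up to 135-fold.

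*Cthrc1* (ENSMUSG00000054196, chromosome 15, 38940246 to 38950518) went from near the limit of detection to a low but clear level. Controls were at 0.112, 0.189 and 0.114 CPM in males and 0.0431, 0.194, 0.1001 and 0.166 in females, from 1 to 7 reads a library. In males the level was 2.41, 9.13, 4.16 and 1.31 CPM at 1 week, 2.43, 3.82, 1.05 and 1.25 at 3 weeks, and 2.28, 2.12 and 1.94 at 6 weeks. In females the level was 1.89, 8.63, 3.26 and 1.82 at 1 week, 2.38, 2.20, 4.23 and 4.79 at 3 weeks, and 2.22, 7.95, 4.74 and 3.36 at 6 weeks. All were above all controls, with the widest spread at 1 week. On the log2 scale the change was 2.62 (SE 0.40, adjusted p = 6.1e-05), 1.92 and 2.03 in males and 2.58 (SE 0.36, adjusted p = 1.5e-05), 2.58 and 2.90 in females. The added 0.5 CPM exceeds the control level, so these values understate the change.

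*Fap* (ENSMUSG00000000392, chromosome 2, 62331286 to 62404419) rose moderately. Controls were at 2.44, 3.37 and 3.97 CPM in males and 3.70, 3.48, 3.70 and 3.88 in females. Female hearts after tamoxifen were between 5.66 and 10.9 CPM, all above controls, with a log2 fold change of 0.84 (SE 0.14, adjusted p = 0.00014), 0.87 and 1.13. Male hearts were at 6.09, 7.19, 6.45 and 3.86 CPM at 1 week, 6.48, 7.47, 5.36 and 6.11 at 3 weeks, and 5.56, 6.39 and 3.26 at 6 weeks. The male log2 fold change was 0.76 (SE 0.21, adjusted p = 0.0095) at 1 week and 0.88 (adjusted p = 0.0048) at 3 weeks. The call at 1 week was lost without control replicate 1 (0.59, adjusted p = 0.064). At 6 weeks it was 0.54 (95% interval 0.07 to 1.015, adjusted p = 0.082), which became 0.80 (adjusted p = 0.01) without 6-week replicate 4, the library at 3.26. With equal library totals the male value at 6 weeks also passed (0.71, adjusted p = 0.039), as it did with the 2 libraries of conflicting labels placed by description (0.59, adjusted p = 0.031).

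*Meox1* (ENSMUSG00000001493, chromosome 11, 101768336 to 101785227) was not called higher than control at any week on the authors' scaling. Male controls were at 15.6, 12.1 and 20.52 CPM and female controls between 11.2 and 14.5. Male hearts after tamoxifen ran from 7.60 to 12.7 CPM and female hearts from 8.11 to 17.3. The male log2 fold change was -0.54 (adjusted p = 0.11) at 1 week, -0.53 (adjusted p = 0.15) at 3 weeks and -0.75 (SE 0.27, adjusted p = 0.046) at 6 weeks. The last call was lost without either of 6-week replicates 3 and 4 (adjusted p = 0.11 and 0.14), without control replicate 1 or 4 (adjusted p = 0.090 and 0.19) with equal library totals (-0.57, adjusted p = 0.20), and with only the 2 groups in the fit (adjusted p = 0.059), where the male value at 1 week passed (adjusted p = 0.045). In females it was -0.28, -0.25 and 0.12 at 1, 3 and 6 weeks, with 95% intervals of -0.66 to 0.10, -0.63 to 0.13 and -0.26 to 0.50. The female value at 1 week was -0.51 (adjusted p = 0.018) without replicate 2, the library at 17.3. With equal library totals the female values were 0.05, 0.09 and 0.51, the last with an adjusted p of 0.036.

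*Cilp* (ENSMUSG00000042254, chromosome 9, 65172200 to 65187888) varied widely between replicates. Controls were at 10.7, 7.99 and 20.3 CPM in males and 8.53, 8.57, 15.2 and 13.1 in females. At 1 week male hearts were at 46.2, 18.9, 20.1 and 6.55 and female hearts at 19.8, 26.9, 15.1 and 13.1. At 6 weeks they were at 6.46, 8.90 and 7.32 in males and 6.34, 10.5, 18.7 and 9.37 in females. At every week the groups overlapped with controls in both sexes. Fitted changes were 0.60 (95% interval -0.34 to 1.54), -0.38 and -0.65 in males and 0.69 (-0.04 to 1.42), -0.65 and -0.07 in females. At 1 week, leaving out male replicate 4 gave 1.08 (adjusted p = 0.037), and equal library totals gave 1.02 in females (adjusted p = 0.021), where a fit of only the 2 groups also passed (adjusted p = 0.043).

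The uninduced hearts hold the transgene without tamoxifen, and in them *Comp* was already raised. *Comp* was at 14.0, 6.88, 7.74 and 6.21 CPM in uninduced males and 10.4, 10.2, 11.2 and 14.5 in uninduced females, above every control library. The log2 fold change against control was 2.43 in males (SE 0.27, adjusted p = 2.9e-05) and 2.71 in females (SE 0.41, adjusted p = 0.00053). *Pi16* was at 122, 87.2, 100.4 and 82.9 CPM in uninduced males and 86.3, 110.1, 171 and 107 in uninduced females, again above every control library. It was called in females (0.82, SE 0.16, adjusted p = 0.005) and not in males (0.70, SE 0.20, adjusted p = 0.17). With only the 2 groups in the fit the female *Pi16* call was lost (adjusted p = 0.058). *Dpt* was at 98.3, 73.4, 86.7 and 81.3 CPM in uninduced males and 108.8, 99.5, 99.1 and 99.4 in uninduced females, likewise above all controls. Its log2 fold change was 0.69 (SE 0.17, adjusted p = 0.091) and 0.52 (SE 0.16, adjusted p = 0.09). DESeq2 on recovered reads called *Dpt* in both sexes (adjusted p = 0.018 and 0.039), as did equal library totals (adjusted p = 0.033 and 0.025), which also brought in male *Pi16* (0.87, adjusted p = 0.047). *Gsn*, at 762, 825, 899 and 858 CPM in males and 971, 1028, 888 and 1414 in females, had a log2 fold change of -0.04 (95% interval -0.45 to 0.37) and -0.17 (-0.50 to 0.16). In all, 1 of the 10 genes was called in males, against 0.597% of all genes tested, and 2 of the 10 in females, against 2.87%. Uninduced hearts differ from controls in both genotype and tamoxifen, and the 2 cannot be told apart here.

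Set against uninduced hearts, which share the genotype, *Comp*, *Cthrc1*, *Pi16* and *Dpt* rose and *Gsn* fell at every week in both sexes. The uninduced hearts received no tamoxifen and are titled baseline. The drug, the induction of *Il11* and the time of sampling therefore cannot be told apart in these comparisons, which use the same libraries after tamoxifen as those with control. In males 8, 7 and 5 of the 10 genes were called at 1, 3 and 6 weeks, against 18.8%, 16.1% and 20.4% of all genes tested. In females 7 were called at each week, against 12.6%, 16.7% and 22.8%. *Comp* had a log2 fold change over uninduced hearts of 2.88, 3.31 and 3.74 in males and 2.28, 3.16 and 4.37 in females. *Pi16* had 1.95, 1.98 and 2.31 in males and 1.59, 2.08 and 2.30 in females, and *Gsn* had -1.28, -1.37 and -1.18 and -1.28, -1.80 and -1.34. Of the calls against control, 3 were not made against uninduced hearts: *Tcf21* (0.39, adjusted p = 0.14) and *Meox1* (-0.29, adjusted p = 0.45) at 6 weeks in males, and *Pdgfra* at 3 weeks in females (0.40, adjusted p = 0.063). *Tcf21* at 3 weeks in females was called against uninduced hearts (0.43, adjusted p = 0.044) and not against control.

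Between the weeks, few changes passed. In males 0 of the 10 genes were called in limma between 3 and 1 weeks, 6 and 1 weeks, or 6 and 3 weeks, against 0.0177%, 0.165% and 0% of all genes. Among all genes, 2710, 2615 and 1072 had an unadjusted p under 0.05 there. In females 0 of the 10 were called by limma between 3 and 1 weeks (against 0.218%), 3 between 6 and 1 weeks (against 1.03%) and 0 between 6 and 3 weeks (against 0%, with 2572 genes at an unadjusted p under 0.05). The 3 genes were *Comp* (log2 fold change 2.09, SE 0.41, adjusted p = 0.011), *Pi16* (0.71, SE 0.16, adjusted p = 0.029) and *Dpt* (0.69, SE 0.16, adjusted p = 0.035). All 4 female libraries at 6 weeks lay above all 4 at 1 week for *Pi16*, and the groups overlapped for *Comp* and *Dpt*. None of the 3 was called without 1-week replicate 1 or 4 or without 6-week replicate 2 (*Comp* adjusted p = 0.056, 0.060 and 0.061), and only *Comp* was called without replicate 3 of either week. Without 1-week replicate 2, in which *Comp* was at 196 CPM, the change of *Comp* was 2.67 (adjusted p = 3.1e-05), it also passed between 3 and 1 weeks (1.46, adjusted p = 0.028), and *Meox1* passed between 6 and 1 weeks (0.63, adjusted p = 0.030). The male intervals between 6 and 1 weeks were 0.29 to 1.43 for *Comp*, -0.07 to 0.79 for *Pi16* and -0.11 to 0.62 for *Dpt*.

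The change against control was compared between the sexes as an interaction over 16627 genes. None of the 10 genes was called at 1, 3 or 6 weeks or in uninduced hearts, against 0%, 0%, 0% and 0% of all genes in limma, where 2908, 691, 2886 and 862 genes had an unadjusted p under 0.05. *Tcf21* at 1 week had the largest male excess of the 10 beside its error, 0.71 (95% interval 0.23 to 1.18, adjusted p = 0.11). At 6 weeks the male change minus the female change was -0.91 for *Comp* (-2.05 to 0.23), -0.88 for *Meox1* (-1.56 to -0.19, adjusted p = 0.19), -0.59 for *Fap* (-1.13 to -0.06, adjusted p = 0.24) and -0.54 for *Pdgfra* (-0.997 to -0.09, adjusted p = 0.21). For *Pi16* and *Dpt* at 6 weeks it was -0.10 (-0.67 to 0.46) and -0.26 (-0.78 to 0.26). The 2 tables were scaled apart, and levels are therefore compared within a sex only.

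Levels of different genes were compared per kilobase of exons in GRCm39 (GENCODE). In control hearts *Gsn* stood first, at a mean of 81.3 CPM per kilobase in males and 113 in females, followed by *Dpt* (11.7 and 15.9) and *Pi16* (9.55 and 10.2). *Dpt* and *Pi16* overlapped between libraries in males and not in females. *Meox1* was next (7.13 and 5.79), overlapping with *Pi16* in males, and *Cthrc1* last (0.0711 and 0.0645), below *Comp* (0.389 and 0.462). At 6 weeks the order in males was *Pi16* (76.2), *Dpt* (53.8), *Comp* (40.5) and *Gsn* (35.3), with *Pi16* above *Dpt* in every library, and with *Comp* overlapping with both *Dpt* and *Gsn*. In females *Comp* (90.8), *Pi16* (89.5) and *Dpt* (87.4) overlapped over their libraries, and *Gsn* (40.6) followed, overlapping with *Comp*. *Pdgfra*, *Tcf21*, *Cilp*, *Fap* and *Meox1* stayed between 0.555 and 7.13 in the means of all groups.

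**Figure D3:**
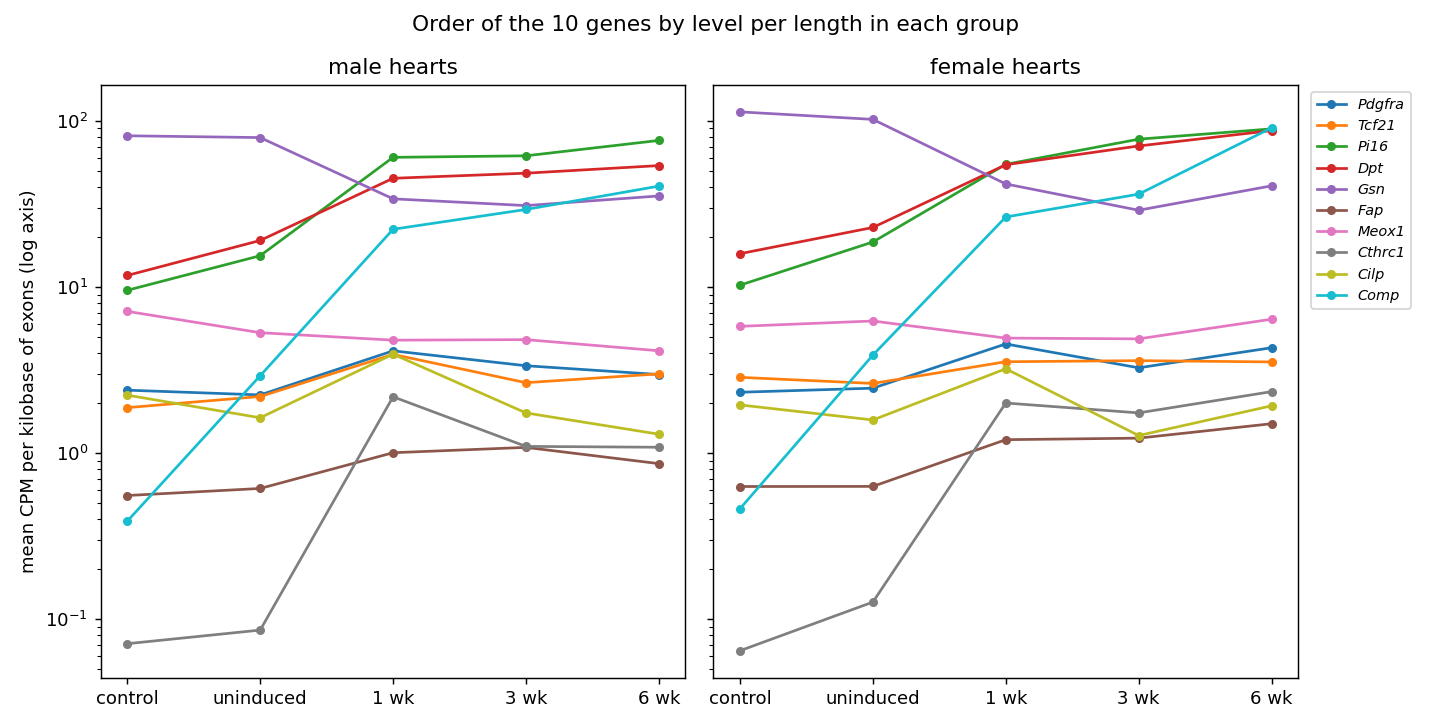
Mean CPM per kilobase of exons, on a log axis, of the 10 genes in control, uninduced, 1-week, 3-week and 6-week hearts of each sex; lines join the means of separate groups of mice. *Gsn* has rank 1 in control and uninduced hearts and rank 3 or 4 after tamoxifen, and *Comp* has rank 9 in controls and rank 3 in males and 1 in females at 6 weeks.

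Other genes of the same cells, fixed as lists with earlier results in view, are given by their counts. Of 16 other resident fibroblast genes, 10 were called higher at each week in males and 1, 3 and 1 lower, with medians of 1.23, 1.23 and 1.36 on the log2 scale. In females 10, 10 and 12 were higher and 2, 3 and 2 lower, with medians of 0.98, 1.15 and 1.29. The shares of all genes called higher and lower at each week, given above for the 10 genes, apply to the counts of all these lists. The secreted lectin gene *Clec3b* (1.98 in males and 1.83 in females at 6 weeks), the matrix genes *Smoc2* (1.88 and 1.72), *Fbln1* (1.86 and 2.28) and *Dcn* (1.57 and 1.59, encoding the collagen-binding proteoglycan decorin) were among those that rose. The lipid transporter gene *Abca8a* fell, by -1.79 (SE 0.27) in males and -1.90 (SE 0.20) in females at 6 weeks. In uninduced hearts 2 of the 16 were higher in males, *Clec3b* (0.84) and *Smoc2* (0.82), and 4 in females. Of all genes, 0.597% in males and 2.87% in females were called there in either direction.

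Of 16 other activated fibroblast genes, of which *Cilp2* is listed in the female table only, 9, 8 and 8 of 15 were called higher and 2, 1 and 1 lower in males at 1, 3 and 6 weeks. In females 7, 7 and 12 of 16 were higher and 0 lower. The largest changes at 6 weeks were those of *Ccn5*, a secreted matricellular protein (4.85 in males and 5.64 in females), and *Lox*, which crosslinks collagen (3.66 and 4.70). *Postn*, which encodes periostin, rose in males, from 42.2 ± 25.5 to 132 ± 52.2 CPM (SD, n = 3 each) and by 1.71 on the log2 scale (SE 0.48, adjusted p = 0.012). In females it rose from 36.6 ± 6.90 to 210.1 ± 81.9 (SD, n = 4 each), by 2.44 (SE 0.30). *Acta2*, the smooth muscle actin of myofibroblasts and of vessel walls, was at -0.47 (adjusted p = 0.32) and -0.19 (adjusted p = 0.66). *Wif1*, a secreted Wnt inhibitor, fell in males (-1.64, adjusted p = 0.0037) and was at -0.70 (adjusted p = 0.44) in females.

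Among 6 genes of platelet-derived growth factors and their other receptors, 2, 1 and 1 were called higher and 1, 0 and 0 lower in males, and 1, 2 and 1 higher and 1, 2 and 1 lower in females. A count of 1 of 6 is near the share of all genes called higher at 6 weeks, which was 16.2% in males and 21.7% in females. The ligand gene *Pdgfc*, whose product binds the receptor encoded by *Pdgfra*, rose by 0.86 in males (SE 0.25, adjusted p = 0.014) and 1.45 in females (SE 0.23, adjusted p = 3.5e-05) at 6 weeks. The receptor gene *Pdgfrb*, typical of mural cells, was at -0.43 (adjusted p = 0.085) and -0.22 (adjusted p = 0.20). Of the relatives of the 10 genes in sequence, 4 of 10 were higher at each week in males and 3, 3 and 6 of 11 in females, with 0 lower. *Thbs3* and *Thbs4*, thrombospondins like *Comp*, rose by 2.47 and 1.92 in males and 2.34 and 2.71 in females at 6 weeks. *Capg*, a gelsolin relative that caps actin filaments and is abundant in macrophages, rose by 1.60 and 1.57 while *Gsn* fell.

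Markers of other cell types moved in the same hearts. All 8 macrophage markers were higher at each week in both sexes, and their summed level ran from 183 to 297 CPM in male controls and from 732 to 1037 in male hearts at 6 weeks. In females it ran from 159.9 to 212 in controls and from 903 to 1034 at 6 weeks. In uninduced hearts 7 of the 8 were higher in females and 0 in males, against 2.87% and 0.597% of all genes called in either direction. Of 8 endothelial markers 6, 5 and 6 were lower in females and 4, 3 and 3 in males at 1, 3 and 6 weeks, with summed levels of 1052 to 1199 CPM in male and 1020.2 to 1146 in female controls against 709 to 919 and 673 to 875 at 6 weeks. Of 8 mural markers 3, 4 and 4 were lower in females and 3, 1 and 2 in males, with sums of 972 to 1189 and 945 to 1042 CPM in male and female controls against 622 to 717 and 579 to 899 at 6 weeks. Of 8 cardiomyocyte markers 3, 3 and 5 were lower in females and 3, 2 and 2 in males, and none of these 3 lists had a gene called higher in those comparisons. Over all genes 13.1%, 14.5% and 21% were lower in females and 14.6%, 8.1% and 10.9% in males, so that 1 of 8 is near the share of all genes. On the authors' scaling the totals of whole libraries differed too. They ran from 1181923 to 1196278 in female controls and from 848402 to 942588 in females at 6 weeks. In males they overlapped, at 1063756 to 1193422 and 906746 to 1165099. How far the lower counts and sums of these lists depend on that scaling is not given here.

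The mesothelial markers, of the cells that cover the heart, were called higher for 7 of 8 genes at each week in females and for 0, 0 and 1 of 8 in males. Over all genes 15.3%, 16.8% and 21.7% were higher in females and 18.9%, 13.2% and 16.2% in males, so that 1 of 8 is near the share of all genes. In the test of a difference between the sexes, 0 of 16627 genes passed at any week. The summed level of the mesothelial markers was 5.81 to 11.4 CPM in female controls and 17.5 to 108 at 6 weeks, and 6.90 to 8.71 and 7.32 to 36.2 in males. In females it was 6.80 to 81.4 at 3 weeks, overlapping with controls. Uninduced females, at 12.3 to 36.0, lay above all female controls. Of the 8 genes of cartilage and tendon, where *Comp* and *Cilp* are also made, 3 are listed (*Acan*, *Cnmd* and *Sox9*), and 1 of them in males and 3 in females were higher at 6 weeks. Their summed level stayed between 1.25 and 11.1 CPM in every group. Of the adipocyte markers 2 of 6 are listed. Both were called higher in females at 1 week, 1 of them in uninduced females, and neither in the other comparisons with control. Of all genes, 15.3% were higher in females at 1 week, and 2.87% were called in either direction in uninduced females. No listed marker was at 0 in all libraries. The part of these cell types in the changes of the 10 genes was not tested.

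**Figure D4:**
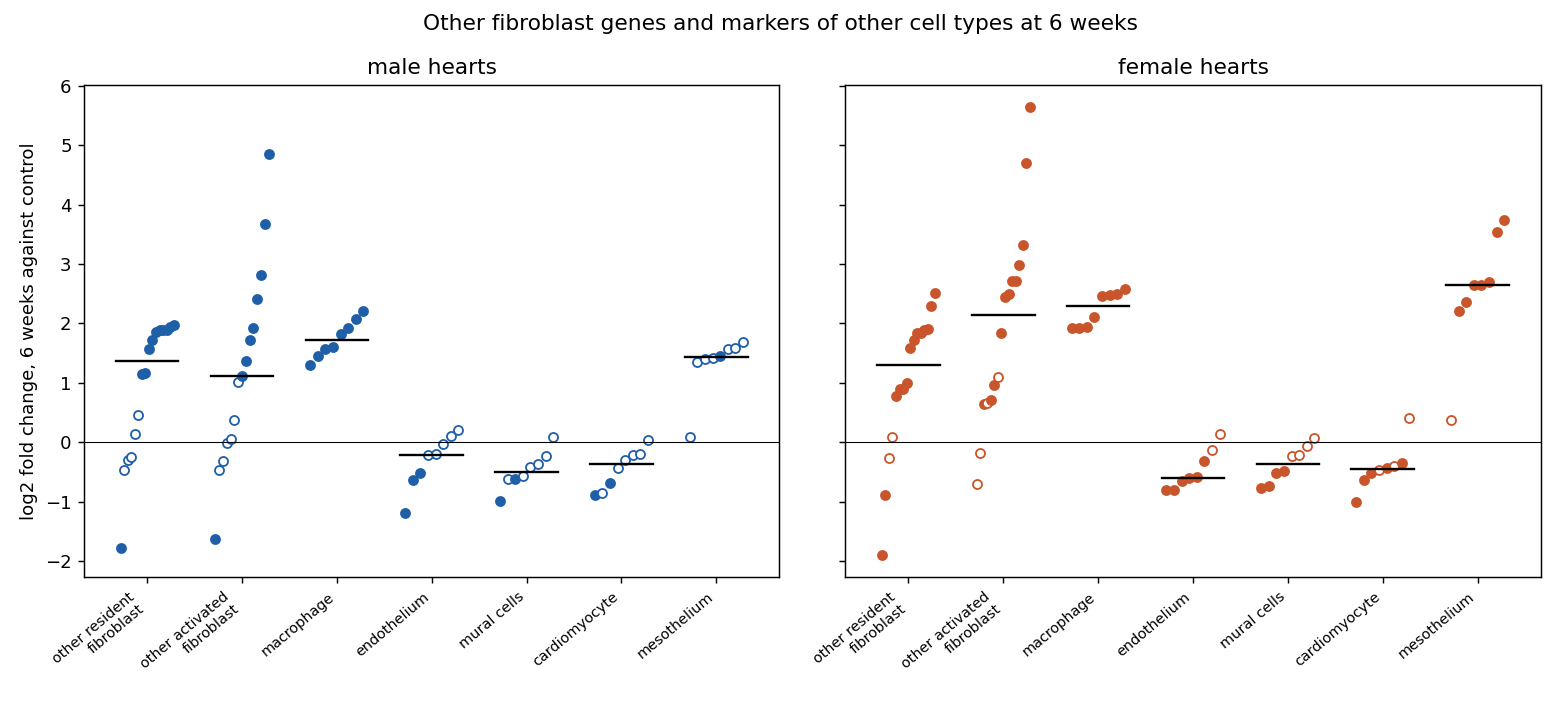
Log2 fold change against control at 6 weeks of each gene of 2 fibroblast lists and 5 lists of markers of other cell types, in male (left) and female (right) hearts; filled points are called at an adjusted p under 0.05 and black lines are list medians. The macrophage markers are all above 0 in both sexes, and the mesothelial markers are called in females for 7 of 8 genes and in males for 1 of 8.

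For genes whose change against control reached a log2 value of 1 in size, the other genes with the most similar set of 8 changes (4 groups in each sex) were taken among 16627. For *Pi16* they were *Clec10a*, a lectin receptor gene of macrophages and dendritic cells, and *Aebp1*, a matrix protein gene (root mean square difference 0.167 and 0.169 on the log2 scale). For *Dpt* they were *Nox4* and *Spi1* (0.117 and 0.164), the latter a transcription factor of myeloid cells. For *Fap* they were *Pcdh9* and *Fam114a1* (0.105 and 0.110). *Cthrc1* had *Pik3r5* and *Gm36107* (0.258 and 0.300), and *Comp* had *Nfasc* and *Csf2rb2* (0.469 and 0.571). The 8 changes share 1 control group in each sex, and the order is a description of likeness over them.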

How the data were processed

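Heart RNA was sequenced by the authors from libraries made with a directional polyA kit, aligned to GRCm39 and counted per gene with featureCounts. The authors deposited the values as CPM scaled by library, in 1 table for each sex, and the values were handled as signal because their column sums differ between libraries and between groups. Whole reads could be recovered for 100% of values within 0.001 of a read. Genes that reached 0.5 CPM in 3 or more libraries were tested on log2(CPM + 0.5) with limma 3.58.1 (R 4.3.3, with a mean-variance trend), all 5 groups of a sex in 1 fit, with Benjamini-Hochberg adjustment and a call at 0.05. Since each sex was scaled apart, the sexes were compared only through their changes. edgeR 4.0.16 and DESeq2 1.42.0 were run on recovered reads as alternatives, beside other pseudocounts, filters, scalings, a replicate block, 2-group fits and fits without 1 library. The 29 male and 24 female rows without a gene name were not removed before the filter and the tests. They were left out only of the search for genes with similar changes.

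On simulated counts for 6 weeks against control, changes of 1 and 2 on the log2 scale were recovered for 69.8% and 87.6% of changed genes in males (16337 genes) and 64.3% and 93.9% in females (16411 genes). Only 96 and 97 genes were changed at these sizes in males, and 98 and 98 in females. In the data 2742 genes were called higher and 1838 lower in males, and 3678 and 3567 in females. The recovery in the simulation is therefore not that of the tests on the data. The 2 male libraries with conflicting labels were in no test. The labels name no batch, and replicates are separate mice.

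The 10 genes and all lists were chosen with earlier results of these data known. Named were the 10 genes, *Il11*, list genes by their counts, and for each of the 10 with a change of at least 1 in size the 2 genes with the most similar changes. Those of *Gsn* are not reported here. Genes singled out from the lists were picked after their values were seen. *Dpp4*, *Cilp2* and *Thbs4* are each in 2 lists. Gene positions and exon lengths are from GENCODE on GRCm39, and promoters from RefSeq on GRCm38.p6.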

Additional observations from a re-analysis of the deposited data

Results flagged for a closer look

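In 6 of 80 groups of 4 libraries, 1 library lay far from the other 3, and chance gives this in about 1 of 20 groups. *Comp* in female replicate 2 at 1 week was at 195.6 CPM, where the other 3 were between 28.4 and 53.7. *Pdgfra* was at 70.01 CPM in the same library, above the others of its group. *Pdgfra* was low in male replicate 2 at 1 week, at 45.23 CPM, and in male replicate 3 at 3 weeks, at 35.89 CPM. *Dpt* was high in female control replicate 4, at 76.88 CPM, and in uninduced female replicate 1, at 108.8 CPM.

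The 2 male libraries that entered no test were set against the male controls. In the library titled control and described as 6 weeks, 6 of the 10 genes were above the highest male control: *Pdgfra* at 42.34 CPM, *Pi16* at 368.4, *Dpt* at 189.7, *Fap* at 7.22, *Cthrc1* at 2.502 and *Comp* at 82.13. In the library titled 6 weeks and described as control, 5 were above it: *Tcf21* at 6.05 CPM, *Gsn* at 1161, *Fap* at 4.179, *Cthrc1* at 0.199 and *Comp* at 1.831. Some of these margins were small, as for *Cthrc1*, whose highest male control was at 0.189. How many of all genes lay above the 3 male controls in these libraries was not counted. The counts of 6 and 5 are therefore not particular to the 10 genes. *Il11* was at 511 CPM in the first and 0.597 in the second.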

How the results depend on the processing

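The next numbers cover the changes of the 10 genes against control. Under settings other than leaving out 1 library, 886 kept their direction and side of the threshold. Of the rest, 36 lost and 20 gained a call, and 16 changed sign. Without 1 library the numbers were 558, 14, 5 and 13. The setting that asks for a log2 change of at least 1 removes the call of any smaller change by rule. Placement by title puts a library with *Il11* at 511 CPM among the controls. The cause of the other differences was not tested. The scaling to equal library totals was added after seeing the data. Of the counts of called genes, female 6 against 1 week (3) became 1 with edgeR, 1 with 2-group fits and 1 where a log2 change of 1 was also asked for. That last requirement gave 1 for uninduced females (2), 5 for males at 1 week against control (8) and 5 against uninduced (8). Placing the 2 libraries by title gave 3 for the last, and 0 for males at 3 and 6 weeks against control and against uninduced and for uninduced males. Uninduced males (1) became 3 with equal totals and 2 with DESeq2, with 2-group fits and with placement by description. Without 1 library, female 3 against 1 week ran from 0 to 1 and female 6 against 1 week from 0 to 4. The shares of all genes called under these settings are not given here. Shifts in these counts are therefore not particular to the 10 genes. The sign changed with equal totals for female *Meox1* at 1 and 3 weeks (0.05275 and 0.09397), female *Cilp* at 6 weeks (0.3058), and, in uninduced hearts, female *Tcf21* (0.02399), female *Fap* (0.1268), male *Pdgfra* (0.08464) and male *Gsn* (0.1309). It also changed for female *Cilp* at 6 weeks (0.003667) and uninduced female *Fap* (0.02155) with DESeq2, for the latter with median-of-ratios scaling (0.006446) and edgeR (0.006389), and with placement by title for uninduced male *Gsn* (0.3797), *Fap* (-0.1211) and *Cthrc1* (-0.5139). With a replicate block it changed for uninduced male *Gsn* (0.05935) and *Cthrc1* (-0.1659), and male *Meox1* at 6 weeks lost its call (-0.75, adjusted p = 0.057). Same-numbered libraries had residual correlations of 0.0132 on average in males (-0.134 to 0.256) and 0.0255 in females (-0.342 to 0.563), so the numbers were not taken as pairs. Without 1 library, *Cilp* ran from -0.3449 to 0.15 in females at 6 weeks. In uninduced hearts, female *Pdgfra* ran from -0.0122 to 0.1306, female *Fap* from -0.08133 to 0.06062, male *Pdgfra* from -0.261 to 0.04016, male *Gsn* from -0.07407 to 0.005984, male *Fap* from -0.0239 to 0.2798, male *Cthrc1* from -0.08891 to 0.1229 and male *Cilp* from -0.628 to 0.01788. With 1 to 7 control reads a library, depth limits the size of the change of *Cthrc1*.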
